A study of Danio rerio with 6 samples.

Results

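The tandem ggact genes of zebrafish were described across 6 RNA-seq libraries of whole larvae at 3 days post fertilization (dpf), 3 from P2RY11 mutants and 3 from their wild-type (WT) siblings. The members are all rows of the expression tables whose gene name starts with ggact. These were ggact.1 (ENSDARG00000070581), ggact.2 (ENSDARG00000038248) and ggact.3 (ENSDARG00000070579), that is 3 of 19071 listed genes. They were chosen by their FPKM, which is listed at 0 in every mutant library, so their difference between the groups is given as a description and was not tested. The mutants carry an 8-bp CRISPR/Cas9 deletion in P2RY11, kept as a line from a single F1 founder. Mutants and WT siblings came from crosses of heterozygous fish, were raised in E3 medium with methylene blue and carried no other stated allele or agent. Each library was made from a pool of 50 embryos. The sources used here do not tell whether separate clutches gave the pools, so every p-value reflects library-to-library spread that may be technical.

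ggact encodes gamma-glutamylamine cyclotransferase, an enzyme known from work on rabbit and human proteins. Transglutaminases tie proteins together by a bond between a glutamine and a lysine side chain, and breakdown of such proteins leaves gamma-glutamyl-lysine. The cyclotransferase opens this dipeptide into free lysine and 5-oxoproline, which 5-oxoprolinase turns into glutamate. Other gamma-glutamyl cyclotransferases release 5-oxoproline from glutathione or from gamma-glutamyl amino acids.

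The deposited values are FPKM, fragments scaled by transcript length and by library, so levels can be set side by side between genes. The read depth is unknown, and no counting error can be given. The targeted gene p2ry11, a receptor for extracellular ATP, was at 0.707, 0.853 and 1.02 FPKM in the WT siblings (replicates 1, 2 and 3), while every mutant library lists it at 0. From 48 to 180 genes were listed at 0 in a WT sibling library, most of them in replicate 3, and from 91 to 102 in a mutant library. Replicate 3 of the WT siblings stood apart from the other WT siblings also in its median FPKM of 3.81, against 4.52 and 4.84. All 35 listed marker genes of 9 larval cell types, from muscle to blood, were above 0 in every library. Across all genes, log2(FPKM + 1) was compared with limma, and a gene was called at an adjusted p under 0.05 (Benjamini-Hochberg). By this test 1517 of 18432 genes (8.23%) were higher and 733 (3.98%) lower in mutants. The split depended on the scaling: 666 were higher and 1046 lower with median-of-ratios scaling, against 989 and 1301 with quantile normalization. After rescaling to TPM, 1768 were higher and 526 lower. The median log2 difference of all genes was 0.16, and it was 0.012 and 0.0072 after these scalings and 0.28 after rescaling to TPM.

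All 3 ggact copies were detected in every WT sibling library and listed at 0 in every mutant library. ggact.2 had 5.004, 5.19 and 6.29 FPKM in WT sibling replicates 1, 2 and 3. ggact.3 had 2.17, 1.69 and 1.90 FPKM in the same libraries. ggact.1 had 1.40, 1.07 and 1.303 FPKM. The groups did not overlap for any copy, which is what the choice of these genes fixed. A pattern of 0 in every mutant and above 0 in every WT sibling was found in 37 of 19071 listed genes (0.194%). No fold is given, since the mutant value is 0 and its counting limit is unknown. A listed 0 can be a failed estimate, which was not tested. Of 77 listed ribosomal protein genes 0 were at 0 in any library. They were not matched in level to the ggact copies, so this count does not speak to a failed estimate in the copies. In whole larvae, fewer cells that use a gene and less RNA per cell cannot be told apart. All 3 copies passed the filter for the test across genes (0.5 FPKM or more as the mean of 6 libraries), and each did so only through the WT siblings.

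**Figure D1:**
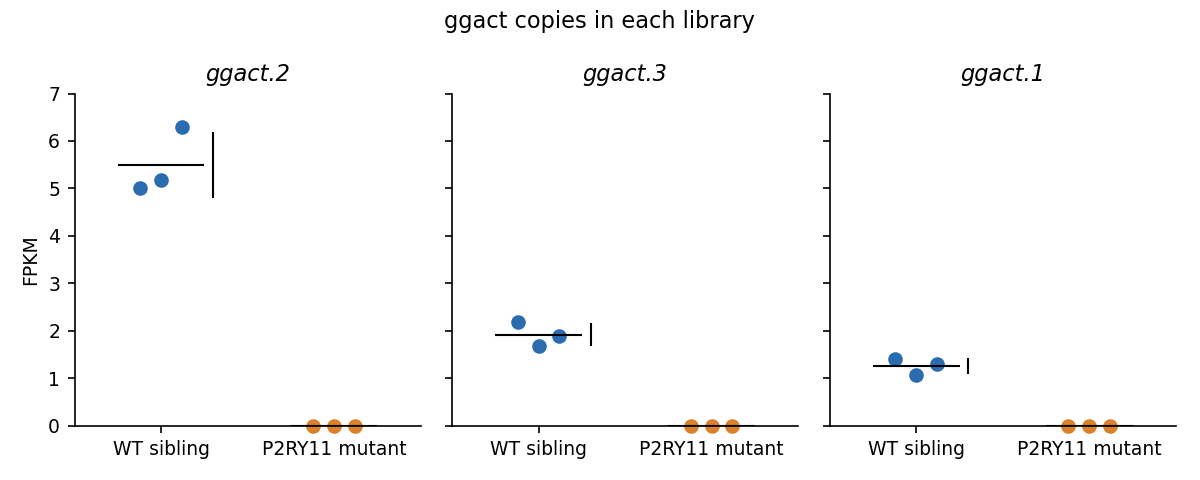
FPKM of ggact.2, ggact.3 and ggact.1 in each library, with WT siblings in blue and P2RY11 mutants in orange. Points are libraries (3 per group), horizontal lines are group means and vertical lines span 1 SD on either side. ggact.2 lies between 5.004 and 6.29 in WT siblings, above the other copies, and all mutant points are at 0.

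The copies differed in level among WT siblings, a feature that did not enter their choice. ggact.2 was the most abundant, with 5.49 ± 0.693 FPKM (SD, n = 3 libraries). ggact.3 had 1.92 ± 0.244 and ggact.1 1.26 ± 0.173 FPKM (SD, n = 3 each). The same order held in all 3 WT sibling libraries, and the ranges of the copies did not overlap. ggact.2 was 2.30, 3.08 and 3.31 times as high as ggact.3 in replicates 1, 2 and 3. The ratio of ggact.3 to ggact.1 was steadier, at 1.55, 1.58 and 1.46. Tandem copies of a gene can share reads, so the split between them is uncertain, while their sum depends less on it. The sum of the copies was 8.58, 7.94 and 9.49 FPKM (8.67 ± 0.778, SD, n = 3), of which ggact.2 made up 58.3%, 65.3% and 66.3%.

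As deposited, the coefficient of variation was 12.6% for ggact.2, 12.7% for ggact.3 and 13.8% for ggact.1, against a median of 17.3% over all tested genes. How the spread of the copies compared with this median depended on the scaling. In TPM, in which every library sums to the same total, it was 6.26% for ggact.2, 14.4% for ggact.3 and 13.6% for ggact.1, against a median of 18.5%. With median-of-ratios scaling it was 20.2%, 16.0% and 18.5% in the same order, against a median of 18.2%. ggact.2 was highest in replicate 3 and ggact.3 in replicate 1 on each of these scales. ggact.1 was highest in replicate 1 as FPKM and TPM, and in replicate 3 with median-of-ratios scaling (1.51 against 1.48 FPKM). On the log2(FPKM + 1) scale, replicate 3 lay 0.26 above the mean of the other WT siblings for ggact.2, 0.048 above for ggact.1 and -0.010 from it for ggact.3. The median over all tested genes for this difference was -0.12. After rescaling to TPM, ggact.2 had 11.8 ± 0.739, ggact.3 4.14 ± 0.595 and ggact.1 2.71 ± 0.368 (SD, n = 3). Their sum was then 19.1, 17.9 and 19.0 TPM in replicates 1, 2 and 3. After median-of-ratios scaling the sum was 9.06, 7.93 and 11.02 FPKM.

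Within the larva, ggact transcripts were of moderate to low abundance. ggact.2 stood at percentile 52.7, 52.0 and 61.6 of the listed genes in WT sibling replicates 1, 2 and 3. ggact.3 stood at percentile 31.8, 24.4 and 35.4, and ggact.1 at 22.8, 15.5 and 28.4. The copies together were below ggctb (22.1 ± 3.88 FPKM), which encodes gamma-glutamylcyclotransferase. They were far below chac1 (95.5 ± 8.57 FPKM), whose product degrades glutathione. They were above oplah (5.01 ± 1.33 FPKM), the gene of 5-oxoprolinase, and chac2 (1.24 ± 0.171 FPKM; SD, n = 3 WT siblings for each).

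Among the 37 genes at 0 in every mutant and above 0 in every WT sibling, ggact.2 had the highest WT sibling mean, ggact.3 came 10th and ggact.1 17th. p2ry11 itself came 22nd, with 0.859 ± 0.155 FPKM (SD, n = 3). The gene next below ggact.2 was CABZ01000634.1, with 4.48 ± 1.57 FPKM. ggact.3 stood between CR450842.1 (2.02 ± 0.443) and the alpha globin gene hbaa1 (1.75 ± 0.902). ggact.1 stood between si:dkeyp-51b9.3 (1.32 ± 0.499) and CU914622.2 (1.05 ± 0.235 FPKM; SD, n = 3 each). Of 8970 genes with a WT sibling mean of at least 5 FPKM, 1 was at 0 in every mutant, and this was ggact.2. It was chosen for being at 0, and the level of 5 FPKM lies between it and the next of the 37 genes. Nothing is read from this count. The opposite pattern, 0 in every WT sibling and above 0 in every mutant, was found in 16 genes, none of them a ggact copy.

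**Figure D2:**
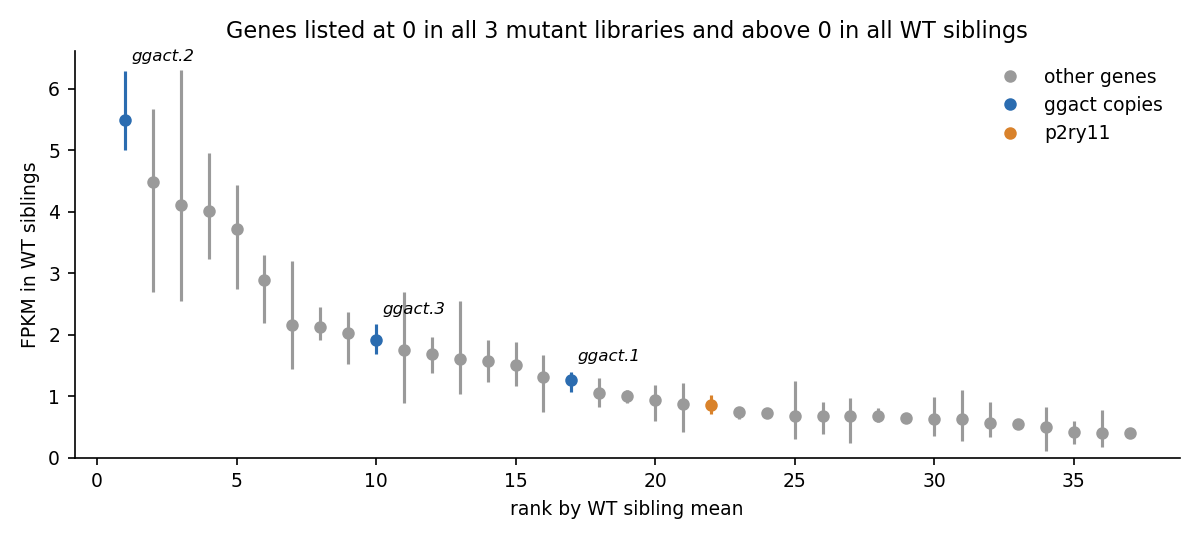
WT sibling FPKM of the 37 genes listed at 0 in all mutant libraries and above 0 in all WT sibling libraries, ranked by their WT sibling mean. Points are means of 3 libraries and lines run from the lowest to the highest library. ggact.2 ranks 1st, ggact.3 10th and ggact.1 17th (blue), and p2ry11 ranks 22nd (orange).

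Just outside this pattern were 30 genes at 0 in 2 of the mutant libraries. The one with the highest WT sibling mean was si:dkeyp-52c3.2, with 10.5, 7.96 and 4.83 FPKM in WT siblings and 0, 0.0872 and 0 FPKM in mutants. It was followed by CABZ01111915.1, with 4.37, 1.91 and 6.87 FPKM in WT siblings and 0, 0 and 2.68 FPKM in mutants. The WT sibling libraries of both genes were farther apart than those of any ggact copy.

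The ggact copies lie side by side in the reference gene order, as ggact.3, ggact.2 and ggact.1, with 0 other entries between them. They are on another chromosome than p2ry11. Of the 37 genes above, 15 could be placed on the reference. The ggact copies were the only 3 of these on their chromosome, and 5, p2ry11 itself and 3 rows of globin genes (hbba1 and hbaa1) included, lay on the chromosome of p2ry11. Of all 16333 placed genes, 725 were on the chromosome of ggact. The share on the chromosome of p2ry11 was not counted, so nothing is read from where the genes lie. The reference is the RefSeq table of the assembly GRCz12tu, which is not the assembly the reads were aligned to. Only the chromosome and the order of genes were taken from it, and both rest on that assembly.

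The listed genes placed next to the copies on either side were present in both groups. Listed genes that could not be placed on the reference are missing from this order. Of all listed genes 85.6% were placed, but only 15 of the 37 with the pattern of the copies. The nearest before the copies was farp1, which encodes a guanine nucleotide exchange factor of the cell cortex. farp1 had 6.44, 6.66 and 4.79 FPKM in WT siblings and 6.30, 6.34 and 6.77 FPKM in mutants. Its groups overlapped, and the log2 difference was 0.11 (SE 0.136; limma, 3 libraries against 3, adjusted p = 0.572). Beyond it, the importin gene kpnb3, whose product carries cargo into the nucleus, had 34.1 ± 6.62 FPKM (WT siblings) and 31.9 ± 1.73 FPKM (mutants; mean ± SD of 3 libraries each; adjusted p = 0.731). Without WT sibling replicate 3, which was the lowest WT library for both genes, the log2 difference was -0.015 for farp1 and -0.24 for kpnb3, and kpnb3 then passed (adjusted p = 0.0437).

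The nearest listed gene after the copies was the glypican gene gpc6a, which encodes a heparan sulfate proteoglycan of the cell surface. gpc6a had 0.286, 0.160 and 0.372 FPKM in WT siblings and 0.488, 1.41 and 0.350 FPKM in mutants. Its groups overlapped (log2 difference 0.41, SE 0.222, adjusted p = 0.218 from limma), and the difference was 1.03 with a pseudocount of 0.1. The mean of gpc6a passed the filter only through the mutants, and without mutant replicate 2 it was not tested. The next, the related gpc5a, had 2.62 ± 1.06 FPKM (WT siblings) and 2.65 ± 0.749 FPKM (mutants; mean ± SD of 3 libraries each; adjusted p = 0.935). Between farp1 and ggact.3 the reference holds 1 further protein-coding entry, and between ggact.1 and gpc6a 4 non-coding entries, which are not analysed here.

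Of the 20 nearest listed genes, 10 on each side, 0 were at 0 in any library. In single libraries 0.252% to 0.944% of all listed genes were at 0, so nothing is read from this count. By limma 0 of the 20 were higher and 3 lower, where 8.23% of all tested genes were higher and 3.98% lower. atic, which encodes the enzyme of the last steps of purine synthesis, fell by 0.74 in log2(FPKM + 1) (SE 0.0905, adjusted p = 0.00701), from 67.9 ± 5.07 to 40.2 ± 2.55 FPKM. The tubulin gene tuba8l2 fell by 0.46 (SE 0.0872, adjusted p = 0.0230), from 139.9 ± 7.13 to 101.7 ± 7.03 FPKM. si:ch211-132g1.3 fell by 0.74 (SE 0.163, adjusted p = 0.0344), from 1.64 ± 0.464 to 0.578 ± 0.179 FPKM (SD, n = 3 each). The median log2 difference of the 20 genes was 0.10, and that of all genes 0.16. It turned to -0.071 with median-of-ratios scaling, to -0.018 with quantile normalization and to -0.021 without WT sibling replicate 3. Among the 5 nearest on each side 1 was lower, si:ch211-132g1.3. Without WT sibling replicate 1, 1 of the 20 was lower, where 223 of all 18499 tested genes were higher and 160 lower. Without mutant replicate 1, 1 of the 20 was lower (all genes: 137 of 18338 higher, 128 lower). Without mutant replicate 2, 1 of 19 was lower (all genes: 153 of 18364 higher, 108 lower). Without WT sibling replicate 2, 1 was higher and 2 were lower (all genes: 1366 of 18439 higher, 537 lower). Without mutant replicate 3, 0 were called (all genes: 114 of 18396 higher, 71 lower). Without WT sibling replicate 3, 5 were lower and 0 higher, where 3747 of all 18583 tested genes were higher and 1488 lower. The 5 genes farthest out before the copies are a cluster of sodium pump alpha subunits (atp1a1a), named here after their values were seen. 0 of these was called, with log2 differences from 0.058 to 0.53, and WT sibling replicate 3 was the lowest WT library in each. Of the 701 tested genes on this chromosome, with these 20 included and the ggact copies left out, 54 were higher and 36 lower. Nothing is read from the neighbor counts.

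**Figure D3:**
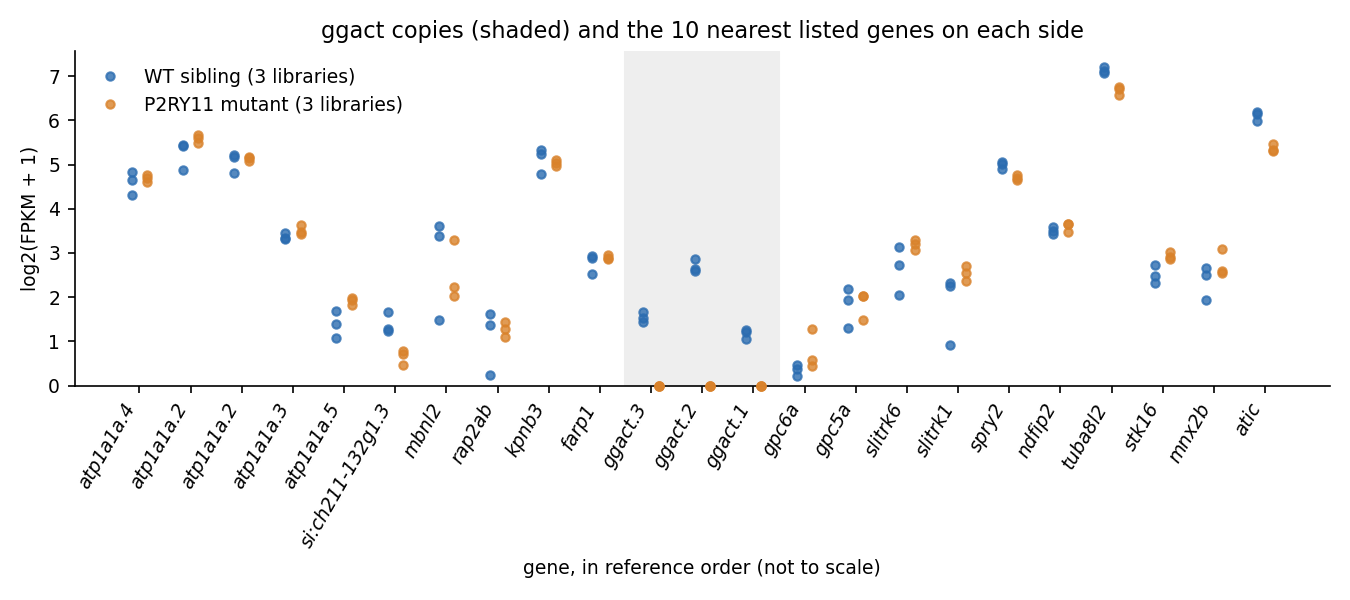
log2(FPKM + 1) of the ggact copies (shaded) and of the 10 nearest listed genes on each side, in reference gene order and not to scale. Points are single libraries of WT siblings (blue) and P2RY11 mutants (orange). The copies are at 0 in all mutants, while farp1 and gpc6a on either side have values above 0 in all 6 libraries.

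The pathway around the ggact enzyme was described by 30 listed genes, ggact copies not included, in 5 roles. They came from 50 symbols, of which 18 had no match in the tables. Of the 29 that were tested, 2 were higher and 2 lower in mutants, where 8.23% of all tested genes were higher and 3.98% lower. Among those called, ggt1b passed the filter only through the mutants and hykk.2 only through the WT siblings. With a filter at a mean FPKM of 1, 1 of 26 was higher and 1 lower, where 1237 of all 16406 tested genes were higher and 646 lower. The median log2 difference of the 29 genes was 0.20, and that of all genes 0.16. 0 of the 30 genes was listed at 0 in any library. Without WT sibling replicate 1 and without each mutant library in turn, 0 were called in either direction. In these fits 114 to 223 of all 18338 to 18499 tested genes were higher and 71 to 160 lower. Without WT sibling replicate 2, 0 were higher and 2 lower, where 1366 of all 18439 tested genes were higher and 537 lower. Without WT sibling replicate 3, 5 of 30 were higher and 3 lower, where 3747 of all 18583 tested genes were higher and 1488 lower. Nothing is read from these pathway counts.

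The transglutaminases, which make the bond whose remnant the ggact enzyme cleaves, had 1 of 7 genes lower and 0 higher. Of all tested genes 3.98% were lower and 8.23% higher. Nothing is read from 1 call among so few genes, here or in the other roles. tgm2b, related to human tissue transglutaminase, had 24.1, 26.7 and 20.3 FPKM in WT siblings and 16.2, 15.5 and 14.1 in mutants. All mutant libraries were below all WT siblings, and its log2 value fell by 0.60 (SE 0.118, limma adjusted p = 0.0251). The reverse, all mutants above all WT siblings, held in 3 of the 7 transglutaminase genes. The share of all genes without overlap was not counted, so nothing is read from either. After rescaling to TPM tgm2b did not pass (adjusted p = 0.0692). Its paralog tgm2a had 25.7 ± 2.92 FPKM (WT siblings) and 25.8 ± 0.475 FPKM (mutants; mean ± SD of 3 libraries each; adjusted p = 0.960). tgm1l1 and tgm2l had log2 differences of 0.72 (SE 0.377, adjusted p = 0.208) and 0.37 (SE 0.169, adjusted p = 0.164). In tgm1l1 this included WT sibling replicate 3 at 2.97 FPKM, against 10.1 and 9.93 in the other WT siblings. Without that library the differences were 0.23 for tgm1l1 (adjusted p = 0.0646) and 0.19 for tgm2l (adjusted p = 0.184).

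Among genes whose products form or use 5-oxoproline, 1 of 4 was higher and 0 lower (8.23% and 3.98% of all tested genes). chac2, which encodes a glutathione-specific cyclotransferase, had 1.05, 1.34 and 1.34 FPKM in WT siblings and 2.104, 2.73 and 2.28 in mutants. It rose by 0.59 (SE 0.131, adjusted p = 0.0352), and did not pass after median-of-ratios scaling (adjusted p = 0.0739) or quantile normalization (adjusted p = 0.227). Its relative chac1 had 116.1 ± 4.21 FPKM in mutants against 95.5 ± 8.57 in WT siblings (SD, n = 3 each; adjusted p = 0.0799), and depended on the setting. Its adjusted p was 0.660 after median-of-ratios scaling and 0.0276 in TPM, 0.0164 with quantile normalization and 0.00915 if WT sibling replicate 3 was left out. ggctb had 20.2, 19.6 and 26.6 FPKM in WT siblings and 17.5, 17.4 and 15.7 in mutants, and on the log2 scale mutants differed by -0.36 (SE 0.130; adjusted p = 0.101). The 5-oxoprolinase gene oplah had 5.78 ± 0.278 FPKM in mutants, against 5.01 ± 1.33 in WT siblings (adjusted p = 0.448).

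Of 7 tested genes grouped under glutathione synthesis and gamma-glutamyl transfer, 1 was higher and 0 lower (8.23% and 3.98% of all tested genes). The group also holds a glutathione reductase gene and a gamma-glutamyl hydrolase gene. ggt1b, which encodes a gamma-glutamyltransferase that takes glutathione apart outside the cell, had 0.243, 0.315 and 0.131 FPKM in WT siblings and 1.13, 0.746 and 0.680 in mutants. All mutant libraries were above all WT siblings, as in 4 of the 8 listed genes of this role, ggt1b included. The share over all genes was not counted, so nothing is read from this. The log2 value of ggt1b rose by 0.58 (SE 0.133, adjusted p = 0.0367), and did not pass after quantile normalization (adjusted p = 0.0797). The size of a difference depends on the pseudocount in genes this low, and with a pseudocount of 0.1 it was 1.54 for ggt1b. Its mean passed the filter only through the mutants, and without mutant replicate 1 or 2 it was not tested. Its paralog ggt1a, with which it can share reads, had 0.378 ± 0.136 FPKM (WT siblings) and 0.570 ± 0.369 FPKM (mutants; mean ± SD of 3 libraries each) and was below the filter. The log2 difference was 0.42 (SE 0.184, adjusted p = 0.153) for the glutathione synthetase gene gss and 0.28 (SE 0.110, adjusted p = 0.116) for ggt5a. Without WT sibling replicate 3 that of gss was 0.24.

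None of 3 peptidase genes passed the test in the fit of all 6 libraries. The nearest was cndp2, which encodes a cytosolic dipeptidase, with 26.9 ± 0.637 FPKM (WT siblings) and 33.2 ± 1.68 FPKM (mutants; mean ± SD of 3 libraries each; adjusted p = 0.0527). It passed after rescaling to TPM (adjusted p = 0.0412) and without WT sibling replicate 3 (adjusted p = 0.0226), while the adjusted p was 0.443 after median-of-ratios scaling. lap3 and dpep2 had log2 differences of 0.12 (adjusted p = 0.403) and 0.21 (adjusted p = 0.550). For dpep2 the difference turned to -0.055 without WT sibling replicate 1, in which it had 0.152 FPKM against 1.104 and 0.875 in the other WT siblings.

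Of 8 genes of lysine degradation, the route open to lysine once the ggact enzyme has freed it, 0 were higher and 1 was lower. Over all tested genes the shares were 8.23% higher and 3.98% lower. hykk.2, which encodes a kinase of hydroxylysine, had 1.303, 1.32 and 0.982 FPKM in WT siblings and 0.514, 0.265 and 0.399 in mutants. The log2 values fell by 0.66 (SE 0.127, limma adjusted p = 0.0233), and by 1.42 with a pseudocount of 0.1. The enzyme acts on hydroxylysine and not on lysine itself. The mean of hykk.2 passed the filter only through the WT siblings. aass, which encodes the first enzyme of lysine breakdown, had 4.21 ± 0.115 FPKM (WT siblings) and 3.69 ± 0.578 FPKM (mutants; mean ± SD of 3 libraries each; adjusted p = 0.413). aadat and dhtkd1, which act further down, had log2 differences of 0.73 (SE 0.271, adjusted p = 0.107) and 0.38 (SE 0.137, adjusted p = 0.102). Without WT sibling replicate 3, the lowest WT library for both genes, the differences were 0.48 for aadat and 0.23 for dhtkd1.

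**Figure D4:**
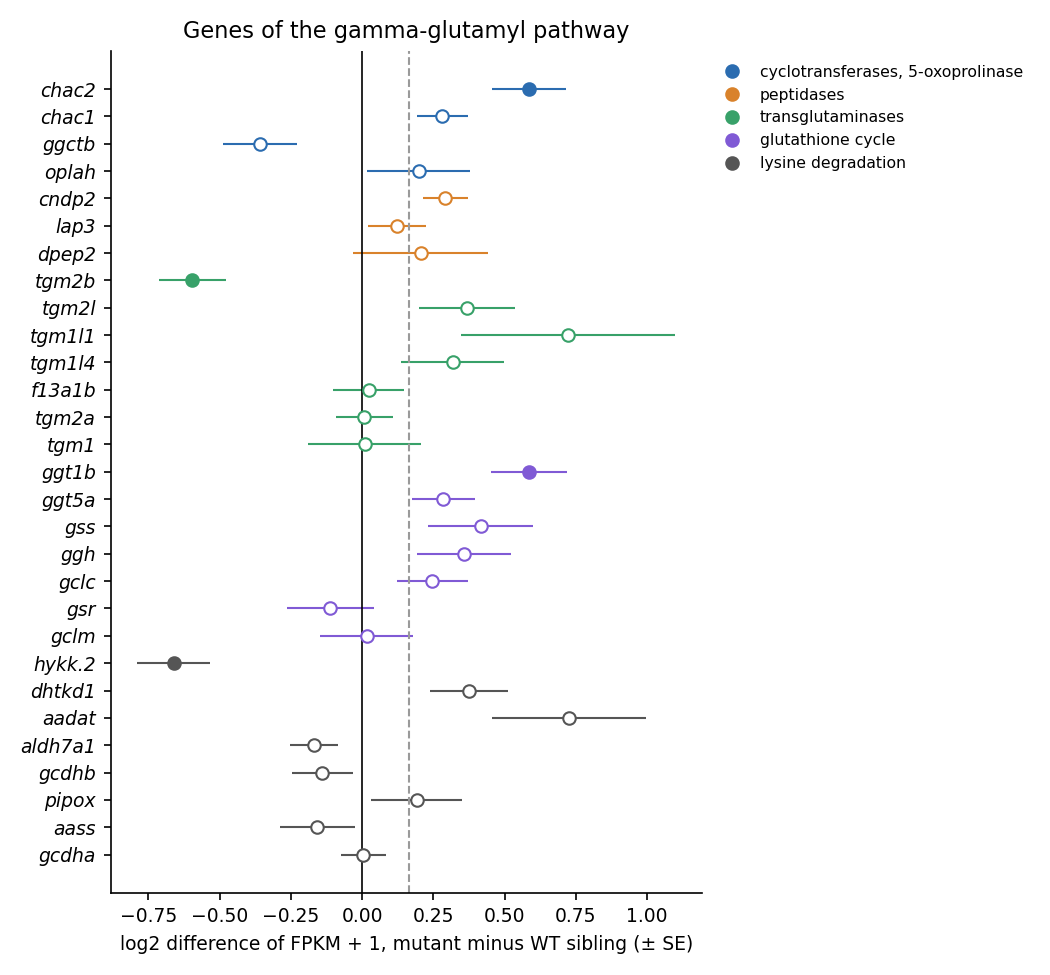
log2 difference of FPKM + 1 (mutant minus WT sibling, with its SE from limma) for the 29 tested genes of the gamma-glutamyl pathway, colored by role. Filled points passed at an adjusted p under 0.05, and the dashed line is the median of all tested genes at 0.16. The filled points are chac2 and ggt1b on the right and tgm2b and hykk.2 on the left.

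The genes whose profile over the 6 libraries was most like that of the ggact copies were sncb, pm20d1.1, si:ch1073-190k2.1, sept2 and fggy. The measure was Pearson's r of log2(FPKM + 1) with the mean of the copies, and it was 0.999, 0.998, 0.998, 0.998 and 0.997. These values are a description over 6 libraries in 2 groups, and the gap between the groups sets most of each. Since the copies are at 0 in all mutants by choice, a gene with a high r has to differ between the groups, and nothing is read from that difference. Of 18429 other tested genes, 34 had an r over 0.99. pm20d1.1, which belongs to a family of peptidases that join and split fatty acids and amino acids in mammals, had 4.92, 4.11 and 5.44 FPKM in WT siblings and 0.443, 0.575 and 0.464 in mutants. It was low but above 0 in every mutant, unlike the ggact copies. si:ch1073-190k2.1 had 1.98, 1.91 and 2.46 FPKM in WT siblings and was listed at 0 in every mutant. The synuclein gene sncb went from 180.6 ± 3.42 to 135.6 ± 1.37 FPKM, the septin gene sept2 from 82.4 ± 2.101 to 57.8 ± 0.983 and the carbohydrate kinase gene fggy from 14.7 ± 0.173 to 6.54 ± 0.222 FPKM (SD, n = 3 each).

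Marker genes of some cell types also differed between the groups, in both directions, where 8.23% of all tested genes were higher and 3.98% lower. These calls and sums rest on FPKM as deposited in all 6 libraries, and were not repeated under the other settings. All 4 blood markers fell, and their summed level was 2422 to 3135 FPKM in WT siblings and 1207 to 1351 in mutants. Of 3 exocrine pancreas markers 2 fell, with sums of 9.78 to 11.3 FPKM in WT siblings and 4.79 to 6.34 in mutants. Of 5 kidney tubule markers 1 rose and 0 fell, and the ranges of the sums overlapped, at 45.5 to 58.2 FPKM in WT siblings and 54.0 to 57.6 in mutants. Of 3 liver markers 1 fell, with sums of 524.6 to 619.0 FPKM in WT siblings and 357.5 to 398.2 in mutants. Of 4 epidermis markers 1 fell, with overlapping sums of 4280 to 5731 FPKM in WT siblings and 3910 to 4880 in mutants. Of 4 brain markers 1 rose, with sums of 96.4 to 130.4 FPKM in WT siblings and 139.5 to 158.7 in mutants. Of 3 tested eye markers 1 rose, with sums of 39.4 to 45.7 FPKM over 4 listed markers in WT siblings and 52.9 to 54.6 in mutants. Of 4 intestine markers 1 rose, while the sum was 3215 to 4002 FPKM in WT siblings and 2111 to 2708 in mutants. None of 4 skeletal muscle markers passed, and their sum was 12660 to 14508 FPKM in WT siblings and 9514 to 11446 in mutants. No marker was at 0 in any library. The ggact copies were chosen for being at 0 in every mutant, so nothing is read from this contrast. The part of cell type makeup in the ggact values was not tested.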

How the data were processed

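Total RNA from pools of 50 P2RY11 mutant or WT sibling embryos (3 dpf, 3 libraries per group) was sequenced on an Illumina instrument. The authors trimmed the reads, aligned them to GRCz11 with HISAT2 (v2.1.0), estimated transcripts with StringTie (v1.3.3) and deposited gene FPKM computed with Ballgown. Processing notes of the submitters also name FastQC 0.11.7 and cutadapt 1.17, and a human assembly, GRCh37, while the listed IDs are zebrafish. The unit is blank in 2 of the 6 tables, whose values lie in the same range. Strand setting, any gene filter and depth are not given in the sources used here.

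log2(FPKM + 1) of 18432 genes, those averaging 0.5 FPKM or more, was compared with limma 3.58.1 in R 4.3.3 (moderated by eBayes with trend, group as the single term, two-sided, Benjamini-Hochberg over all tested genes). Chromosomes and gene order came from the RefSeq table of GRCz12tu, which placed 16333 genes (85.6%). Coordinates served only to set the order. Matches were sought by Ensembl ID first, then by symbol and then by synonym. Named genes are p2ry11, all ggact rows, called pathway genes and up to 3 with the smallest p per role, called neighbors and the nearest on each side, the 5 genes most like the copies, and those next to them in the rank of genes at 0 in all mutants. Other genes named (oplah, tgm2a, ggt1a, aass, the atp1a1a cluster and those just outside the pattern) were chosen after their values were seen. The members and lists were chosen with earlier results of these data known. Alternatives were other pseudocounts (0.1 and 0.5), filters, scalings and windows, a replicate block and leaving out each library. No protein or promoter sequences were used. Figures were drawn with matplotlib 3.10.9.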

Additional observations from a re-analysis of the deposited data

How the results depend on the processing

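A scaling factor per library can change neither the order of the ggact copies within a library nor a value of 0, so the scalings do not test these. Depth is unknown, so how low a level these libraries could detect cannot be stated. The counts of called genes moved with the settings, and the cause was not tested. With all libraries 1517 genes were higher and 733 lower. Scaling by median of ratios gave 666 higher and 1046 lower, and quantile normalization 989 higher and 1301 lower. The study's cutoffs (unadjusted p under 0.05, fold above 1.5), applied to the limma p, gave 2766 higher and 871 lower. The study names no such model for its p, so these are not its own counts. Leaving out each library in turn gave 114 to 3747 higher and 71 to 1488 lower, with the largest numbers without WT sibling replicate 3. For the gamma-glutamyl pathway (2 higher, 2 lower), a filter at a mean FPKM of 1 gave 1 and 1 with fewer genes tested, and rescaling to TPM 4 and 1. Median-of-ratios scaling gave 1 higher and 3 lower, and quantile normalization 1 higher and 2 lower. Leaving out a library gave 0 to 5 higher and 0 to 3 lower. The median log2 difference of the pathway genes was 0.33 in TPM, 0.068 with median-of-ratios scaling and 0.0028 with quantile normalization. For the neighbors of ggact (0 higher, 3 lower), a window of 5 genes on each side gave 1 lower, and leaving out a library 0 to 1 higher and 0 to 5 lower. The groups share replicate numbers, but the deviations of same-numbered libraries correlated by 0.016, 0.0718 and 0.138, so the numbers were not taken to pair them, and not every library correlated best with its own number. With the replicate number as a block 672 genes were higher and 404 lower, with 0 higher and 1 lower in the pathway and 1 lower among the neighbors. Of the named pathway and neighbor genes called with all libraries, atic lost its call in 1 of 14 alternatives, tgm2b, hykk.2 and tuba8l2 in 5, si:ch211-132g1.3 in 6 and chac2 in 8. ggt1b lost its call in 5 of the 11 in which it was tested, and hykk.2 was tested in 13. None of these called genes turned direction. Of the uncalled pathway and neighbor genes followed through the alternatives, 5 did in at least 1. The alternatives were not followed for oplah, tgm2a, ggt1a, aass and the atp1a1a cluster. farp1, gpc5a and lap3 turned to -0.054, -0.099 and -0.058 after median-of-ratios scaling, kpnb3 to 0.028 in TPM, and dpep2 to -0.055 without WT sibling replicate 1. Differences of low genes grew with a pseudocount of 0.1.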
